A study of Mus musculus with 9 samples.

Results

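The resting marrow was described from the 5 untreated animals of a study of mouse bone marrow after chemotherapy, which are 5 of the 9 deposited arrays and 5 of its 8 animals. They were female C57Bl6/J mice aged 6 weeks that received no drug, although their labels carry the day 4 of the other arm. Whole marrow of each animal was lysed to remove red cells, total RNA was extracted with Trizol, and all 5 arrays belong to the earlier of 2 profiling batches. The arrays of the drug-treated arm were not used, so every value below is a level in 1 group and no test between groups was made. The members are all 582 miRNA probes of the bead array that are not control beads.

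MicroRNAs are RNAs of about the length printed below that guide Argonaute proteins to messenger RNAs, mainly through their seed, the bases 2 to 8. miRNAs with the same seed form a family and share many predicted targets. Marrow holds granulocytes, monocytes, lymphocytes, red cell precursors, stem and progenitor cells and stroma, and several miRNAs are known as marks of one of these lineages. In whole marrow, fewer cells of a type and less RNA per cell cannot be told apart.

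On this platform each miRNA is ligated to adaptors, amplified, labelled with biotin and captured on a colour-coded bead. The deposited value is a normalized log2 fluorescence with a floor of 3, which is 8 on the linear scale. A rank below is therefore a rank of probe signal, and how strongly each bead captures its miRNA was not tested. The authors scaled the arrays to an equal total, and the total linear signal of the 5 arrays lay between 401283 and 402088. Array and animal cannot be told apart, since each animal has 1 array, and the labels do not say whether the arrays were run in any order.

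The probes lie in 2 bead sets of 291 probes, recognised from the control beads that the raw table repeats. In bead set 2 the array of animal 3 stood apart. Set 2 held 13.4% of its linear signal and 6.60% to 8.06% in the other 4 animals. In the raw fluorescence column that matches this array the share of set 2 was 8.62%, against 6.48% to 7.38% in the columns that match the others. The deposited values of animal 3 carry 0.68 log2 units more in set 2 than in set 1 relative to raw fluorescence minus water, and the other arrays carry -0.08 to 0.14. In each array this offset equals the log2 difference of the 3 post-control beads between the sets. The normalized columns also match raw columns that carry the label of another untreated animal, in 5 of 5 cases, so animals are numbered here by the normalized table and raw values are given only through the matching column. Over all probes, Pearson's r between 2 arrays lay between 0.979 and 0.995 in the 10 pairs, as a description.

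The highest signals came from a few seed families that are broadly present in dividing and differentiated cells, and from miRNAs of red and white blood cells. The sequences below are shown because these members, apart from let-7e, fill the top of the ranking. The sequence of let-7e, at rank 156, is printed because it is compared with let-7a below. Each is printed 5′ to 3′ from RefSeq (GRCm38.p6), with the seed in capitals. The let-7 family carries the seed GAGGUAG:
let-7g: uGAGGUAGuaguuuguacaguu
let-7a: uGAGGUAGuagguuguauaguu
let-7i: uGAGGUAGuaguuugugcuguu
let-7b: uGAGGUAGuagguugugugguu
let-7c: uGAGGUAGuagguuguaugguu
let-7d: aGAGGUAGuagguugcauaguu
let-7f: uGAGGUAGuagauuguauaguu
let-7e: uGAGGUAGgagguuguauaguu

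The miR-17 seed, AAAGUGC, and the miR-15/16 seed, AGCAGCA, account for most of the other probes near the top:
miR-20a: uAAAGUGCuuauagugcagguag
miR-17: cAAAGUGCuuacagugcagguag
miR-106b: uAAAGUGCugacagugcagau
miR-93: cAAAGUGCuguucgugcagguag
miR-16: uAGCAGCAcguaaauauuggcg
miR-15a: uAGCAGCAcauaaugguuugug
miR-15b: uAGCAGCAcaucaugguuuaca

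Another 4 miRNAs of the top 20, most of them known from blood lineages, share no seed with these or with each other:
miR-144: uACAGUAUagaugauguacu
miR-451: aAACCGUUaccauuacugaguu
miR-223: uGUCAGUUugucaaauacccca
miR-21: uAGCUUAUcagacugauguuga

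miR-16, which is known to restrain the cell cycle, had the highest mean signal. It measured 13.51, 13.77, 13.01, 13.38 and 13.47 in animals 1 to 5, with a mean of 13.43 ± 0.27 (SD, n = 5, log2). Animal 2 was the highest and animal 3 the lowest, as in most of the top 10. miR-144, an erythroid miRNA, followed at 13.27 ± 0.27 with 13.44, 13.56, 12.84, 13.29 and 13.25. miR-20a of the miR-17 family measured 13.37, 13.50, 12.86, 13.32 and 13.21. 5 members of the let-7 family, which rises as cells differentiate, lay among the next 6 probes. They were let-7g at 13.25 ± 0.24, let-7a at 13.22 ± 0.20, let-7i at 13.11 ± 0.20, let-7b at 13.07 ± 0.07 and let-7c at 13.02 ± 0.10. miR-15a at 13.05 ± 0.20 stood between the last 2 of them.

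miR-451, which is processed by Argonaute 2 without Dicer and is abundant in red cells, closed the top 10 at 12.97 ± 0.23. Its values were 12.73, 13.19, 13.21, 12.98 and 12.75. It was the only probe of bead set 2 among the top 30, and in animal 3 it stood highest while the other 9 of the top 10 were at their lowest or next to lowest. The next probe in order was miR-106b at 12.92 ± 0.26.

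The order within the top is loosely fixed. The signal fell by a factor of 1.37 from rank 1 to rank 10 and of 2.16 from rank 1 to rank 30. Of the 19 neighbouring pairs among the top 20, 2 differed by more than the SD of their paired difference. miR-16 exceeded miR-144 by 0.16 ± 0.07 in 5 of 5 animals, and let-7a exceeded let-7i by 0.11 ± 0.09 in 4 of 5. The other 17 neighbours did not differ beyond their spread. Of all probes, 5 were in the top 10 of all 5 animals and 15 in the top 10 of at least 1. The dot plot of the top 30 shows these overlaps.

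**Figure D1:**
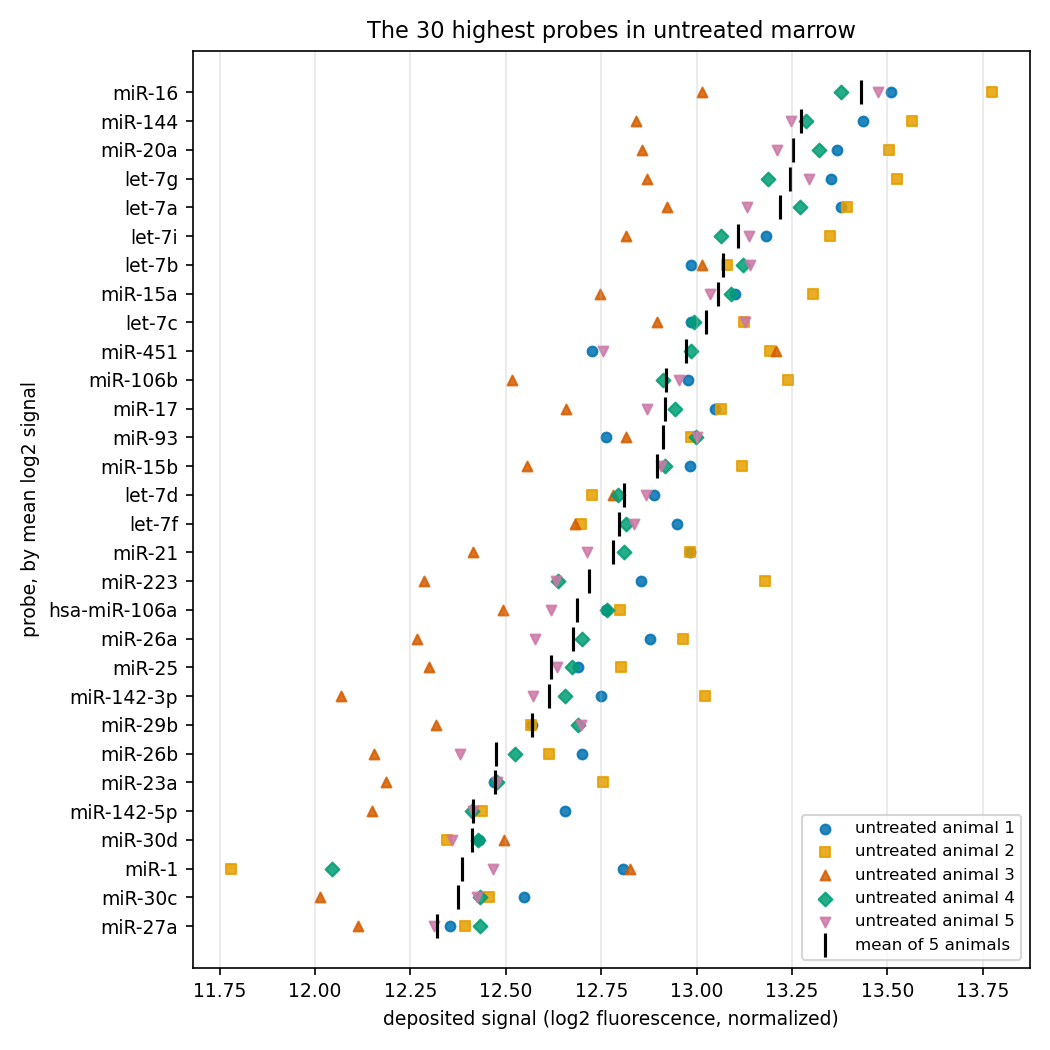
The 30 probes with the highest mean, one row each, with the deposited log2 signal of each untreated animal on the horizontal axis as a coloured symbol and the mean as a black bar. The symbols of neighbouring rows overlap, animal 3 is at the left in most rows, and miR-1 has the widest row, from 11.78 to 12.82.

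No probe dominated the signal. The highest held 2.79% ± 0.51 of an animal's linear signal (SD, n = 5). The top 10 held 23.7%, 26.8%, 19.4%, 23.0% and 22.9% in animals 1 to 5, with a mean of 23.2% ± 2.65. The top 30 held 55.5% ± 5.60 and the top 100 held 93.7% ± 1.48. To reach 50% of the signal took 25, 22, 32, 26 and 27 probes, and to reach 90% took 76, 74, 93, 82 and 83. Animal 3 had the flattest profile and animal 2 the steepest. The array with the highest raw total was that of animal 3 and the one with the lowest that of animal 2, by the match of columns, and the part of this in the shares was not tested.

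**Figure D2:**
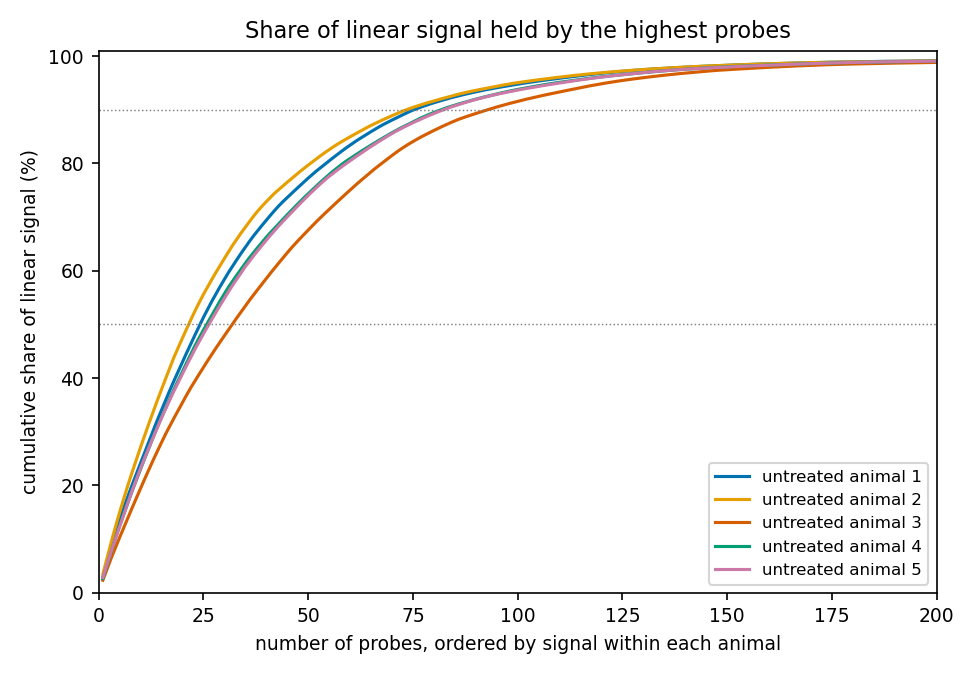
Cumulative share of linear signal (vertical axis, %) against the number of probes ordered by signal within each animal (horizontal axis, cut at 200), with 1 line per untreated animal and dotted lines at 50% and 90%. The line of animal 3 runs below the others, reaching 50% at 32 probes, and that of animal 2 reaches it at 22.

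Grouped by seed, 196 of the 241 probes with a mature mouse name matched a RefSeq sequence and fell into 139 seeds. The let-7 family held the largest share, 15.2% ± 1.06 over 9 probes, with 15.7%, 16.2%, 13.4%, 15.0% and 15.5% by animal. The miR-17 seed held 9.67% ± 0.86 over 6 probes and the miR-15/16 seed 7.36% ± 0.93 over 5. Among matched probes the miR-25/92 seed followed at 3.10% ± 0.12 over 6 probes, of which miR-367, an embryonic miRNA, was at the floor. These 4 families held 35.3% ± 2.90 of the signal, and in each of them animal 3 had the lowest share. The fourth place depends on the matching. miR-30b and miR-30d had no matched sequence, so the miR-30 seed was counted over 3 probes, at 2.63% ± 0.15. The miR-30 list of 5 probes held 5.02% ± 0.21, more than the miR-25/92 seed.

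Close sequences did not always go with close signals. Of the 9 let-7 probes, 7 lay between let-7f at 12.80 and let-7g at 13.25, while 2 were lower, miR-98 at 10.28 ± 0.34 and let-7e. let-7e differs from let-7a by 1 of the 21 bases compared, yet it measured 6.94 ± 0.38 against 13.22 ± 0.20. miR-106a, also 1 base from miR-17, measured 11.55 ± 0.12 against 12.92 ± 0.16. miR-195, 2 bases from miR-16, measured 10.88 ± 0.34, while miR-15a, 6 bases from miR-16, lay 0.37 ± 0.09 below it. The median number of differing bases between members was 3 in the let-7 and miR-17 families, 6 in the miR-15/16 family and 9 in the miR-25/92 family. How far a bead also captures a close relative was not tested.

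Probes from neighbouring genes give a view by genomic source, with the caution that a mature sequence made from several loci is counted at each. The miR-17-92 cluster at chr14:115043684-115044496 (GRCm38.p6, plus strand) drives proliferation and survival of blood progenitors. Its 6 members, which run from miR-19a at 11.58 ± 0.17 to miR-20a at 13.25 ± 0.24, held 8.27% ± 0.59. Its paralog at chr5:138165332-138165807 (minus strand), within Mcm7, carries miR-106b, miR-93 and miR-25 and held 5.45% ± 0.61. The erythroid pair miR-144 and miR-451 at chr11:78073047-78073207 (plus strand) held 4.52% ± 0.48. The 2 miRNAs of that last pair lie on different bead sets, and their difference ran from -0.37 in animal 3 to 0.71 in animal 1.

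Among lineage miRNAs, the haematopoietic ones were high. miR-142, which is confined to blood cells, had both arms in the top 30. Its 3p arm measured 12.75, 13.02, 12.07, 12.66 and 12.57, and its 5p arm averaged 12.41 ± 0.18. The 3p arm was the higher in 4 of 5 animals, by 0.20 ± 0.25, which is within the spread. miR-223, the granulocyte miRNA, measured 12.85, 13.18, 12.29, 12.64 and 12.63. Its mean was 12.72 ± 0.33, with animal 2 above and animal 3 below the rest.

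The granulocyte and monocyte list had 6 of 7 probes above the floor in all 5 animals, a median of 12.32 and 7.52% ± 0.96 of the signal. It includes miR-21 at 12.78 ± 0.24, a miRNA of myeloid activation, and miR-23a at 12.47 ± 0.20 and miR-27a at 12.32 ± 0.12 of one cluster. Over all 582 probes the median was 3.29, and 41.6% were above the floor in all 5. Over the 241 probes with a mature mouse name, the only kind in these lists, the median was 7.20 and 68.0% were above it. The lymphocyte list had 9 of 9 probes above the floor, a median of 11.37 and 6.03% ± 0.28. Its leading members were miR-29b at 12.57 ± 0.15, miR-181a at 11.88 ± 0.09 and miR-150 at 11.71 ± 0.19, the last a miRNA of mature B and T cells.

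Erythroid signal was high even though red cells had been lysed. The erythroid list held 5.21% ± 0.51, nearly all of it in miR-144, miR-451 and miR-486. miR-486, abundant in red cell precursors, measured 10.54, 10.99, 12.47, 10.99 and 11.12. It lies in bead set 2 and is high in animal 3. Without that animal its SD was 0.25, against 0.73 with it. The other 3 members form another cluster and were low, with miR-183 at 5.37 ± 0.36 and miR-182 and miR-96 at the floor in some animals.

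All 15 probes of the stem and progenitor list were above the floor, as were 68.0% of all probes with a mature mouse name. They lay at a lower level, with a median of 9.24 and 4.24% ± 0.47 of the signal. The highest were miR-10a at 11.83 ± 0.18, encoded within a Hox cluster, then miR-221 at 11.51 ± 0.17, miR-222 at 10.98 ± 0.32 and miR-126-3p at 10.91 ± 0.27, a miRNA of endothelium and stem cells. The stromal list had 6 of 6 probes above the floor, against the same 68.0%, and held 0.668% ± 0.14. miR-143, known from smooth muscle and mesenchyme, led it at 9.91 ± 0.23. Its share was lowest in animal 1, at 0.455%, and highest in animal 5, at 0.842%.

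Markers of other tissues were mixed. miR-1, the miRNA of skeletal and heart muscle, ranked 28 of 582 with 12.81, 11.78, 12.82, 12.04 and 12.47. Animals 1 and 3 were high and animal 2 low, a span of 2.06-fold, and its SD of 0.46 was the widest among the top 30, whose median SD was 0.20. miR-133b, from another muscle locus, measured 10.85, 9.72, 10.77, 10.22 and 10.35, which put animals 1 and 3 high and animal 2 low too. miR-1 minus miR-133b was 2.00 ± 0.12. Not every muscle probe did so. miR-206 at 8.86 ± 0.42 was lowest in animal 4, and miR-499 at 4.41 ± 0.99, in bead set 2, was highest in animal 3 and lowest in animal 5. The 4 probes counted in the muscle list were above the floor in all animals, as were 41.6% of all probes and 68.0% of those with a mature mouse name. A miR-208a probe was at the floor in all animals. It was not counted, because the list names miR-208 without the letter. The muscle list held 2.38%, 1.20%, 2.42%, 1.43% and 1.85% of the signal. Its part in the other values of these animals was not tested.

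Several defining markers of liver, neurons and pancreas were at or near the floor. miR-122, the liver miRNA, averaged 3.45 ± 0.46 with 3 of 5 animals above the floor. miR-124, the neuronal miRNA, named after its values were seen, was at 3 in all 5, as was miR-375 of pancreatic islets. The brain list held 0.359% ± 0.09, mainly through the 2 probes for miR-128, at 9.05 ± 0.38 and 8.81 ± 0.43, which blood cells are also known to express, and miR-219 at 8.33 ± 0.20. The epithelial list held 0.429% ± 0.10, led by miR-203 at 9.14 ± 0.27 and miR-200c at 8.71 ± 0.39. The embryonic stem cell list held 0.0367% ± 0.01 and the islet and eye list 0.0140% ± 0.003. Of 28 probes of the imprinted Dlk1-Dio3 cluster 7 were above the floor in all animals, against 164 of 241 (68.0%) of all probes with a mature mouse name, and miR-379 was the highest at 5.84 ± 1.01.

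**Figure D3:**
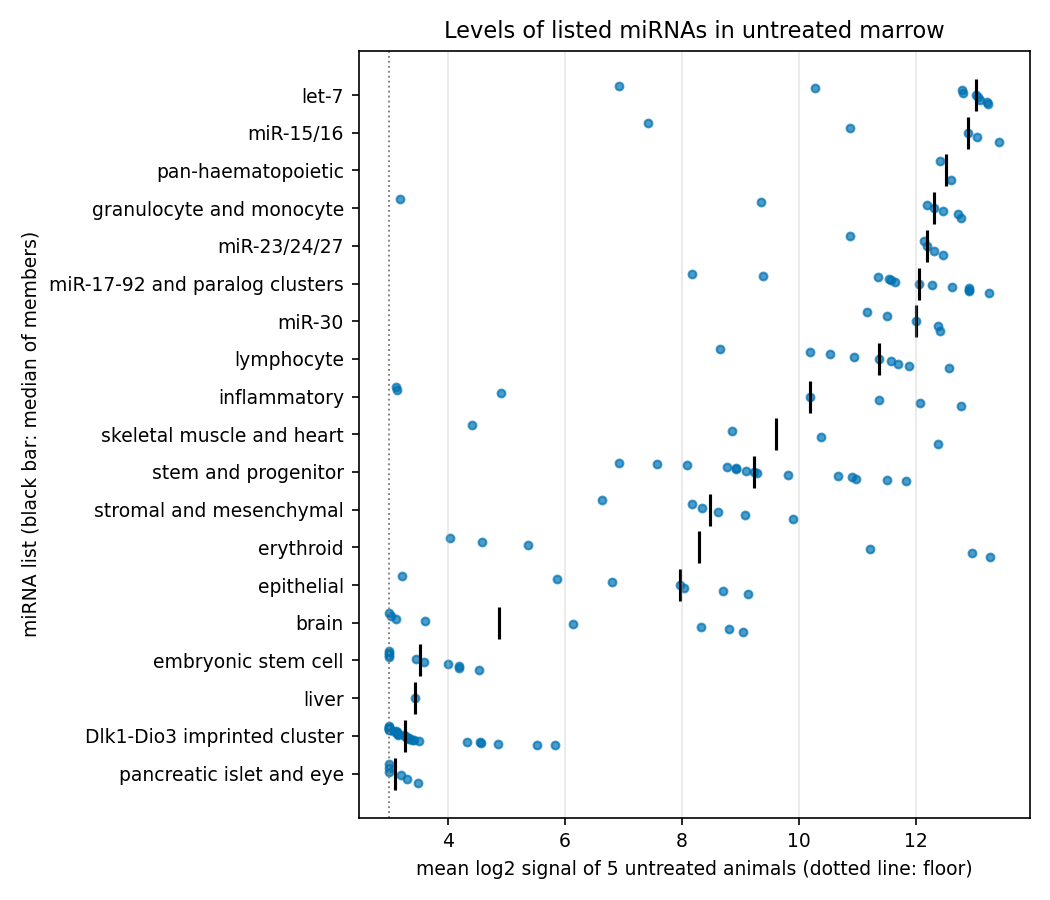
Mean log2 signal over the 5 untreated animals for each probe of 19 miRNA lists, with 1 blue point per probe, a black bar at the median of each list and a dotted line at the floor of 3. The let-7 and miR-15/16 lists have the highest medians, and the islet and Dlk1-Dio3 lists lie near the floor. The median was 3.29 over all probes and 7.20 over those with a mature mouse name.

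Probes with human names and probes of bead set 2 were more often at the floor. At the floor in all 5 animals were 226 probes (38.8%), above it in all 5 were 242 (41.6%), and 114 were above it in 1 to 4 animals. Of the 241 probes with a mature mouse name 164 (68.0%) were above the floor in all 5 and 32 at the floor in all 5. Of 253 probes with a human name only, 32 (12.6%) were above it in all 5 and 175 at it in all 5. Set 2 holds 217 of these human-named probes and 40 of the mouse-named ones. In set 1, 148 of 201 mouse-named probes (73.6%) and 16 of 36 human-named ones (44.4%) were above the floor in all 5. In set 2 the counts were 16 of 40 (40.0%) and 16 of 217 (7.37%). By animal, 275, 266, 338, 294 and 292 probes were above the floor, with animal 3 the highest. Probes above a log2 value of 7 numbered 150, 146, 170, 156 and 158.

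Probes for miRNAs that a mouse lacks show what signal arises without the named miRNA. Of the 57 probes named for the primate chromosome 19 cluster or for Epstein-Barr virus, 8 were above the floor in all animals, although the named miRNAs are not encoded by the mouse. The highest of them, a hairpin probe named hsa-mir-518e, had a mean of 7.33 ± 0.23 and a highest single value of 7.62. In all 5 animals 127 probes lay above that value, 106 of them with a mature mouse name. The other 58 mouse-named probes above the floor in all animals did not clear it in every animal. Of the 57 probes named for the cluster or the virus, 55 lie in bead set 2, and the value of 7.62 comes from set 2 in animal 3, which carries the offset described above. In set 1, which has only 2 such probes, the highest single value was 5.40, and 121 of the 148 mouse-named probes above the floor in all 5 lay above that in every animal. Among the probes at the floor in some animals only, miR-151-3p had the highest mean, at 3 in animal 2 and up to 5.73 in animal 3.

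In the deposited values, the spread between animals was smallest where the signal was strongest. Over the 242 probes above the floor in all 5, the SD between animals had a median of 0.355 and quartiles of 0.213 and 0.501 on the log2 scale. It was 0.479 between 5 and 7, 0.344 between 9 and 11 and 0.196 above 12. The steadiest probes with a mean above 7 were miR-30d with an SD of 0.06, let-7d and miR-146a with 0.07 each, and let-7b with 0.07. miR-146a, which dampens innate immune signalling, measured 12.11, 12.05, 11.97, 12.07 and 12.14. All 12 of the steadiest probes above 7 lie in bead set 1, as do 133 of all 154 probes with a mean above 7. After each bead set was centred separately, none of those 12 remained among the 12 steadiest. The steadiest was then miR-107, with a mean of 11.92 and an SD of 0.04. miR-142-3p at 12.61 and miR-223 at 12.72 were then among the 12 most variable, with SDs of 0.51 and 0.49.

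Among probes with a mean above 7, the most variable were mostly those of bead set 2 and highest in animal 3. Of the 12 with the largest SD there, 9 lie in set 2 and 11 were highest in animal 3. Set 2 holds 21 of the 154 probes above 7. miR-877 measured 7.35, 7.02, 9.13, 7.30 and 7.14, with an SD of 0.87, which was 0.15 without animal 3. miR-342-5p, the minor arm of a lymphoid miRNA, had an SD of 0.93, which was 0.38 without it. Over all 242 probes, whatever their mean, 7 of the 12 with the largest SD lie in set 2, which holds 42 of the 242. Of these 12, 10 were highest in animal 3, and the largest SD was 1.44. Among probes above 7, separate centring of the sets kept 7 of the 12, miR-877 and miR-342-5p among them. The human-named miR-424 probe measured 11.64, 9.99, 11.47, 11.71 and 11.94, and here animal 2 was low, with an SD of 0.78.

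**Figure D4:**
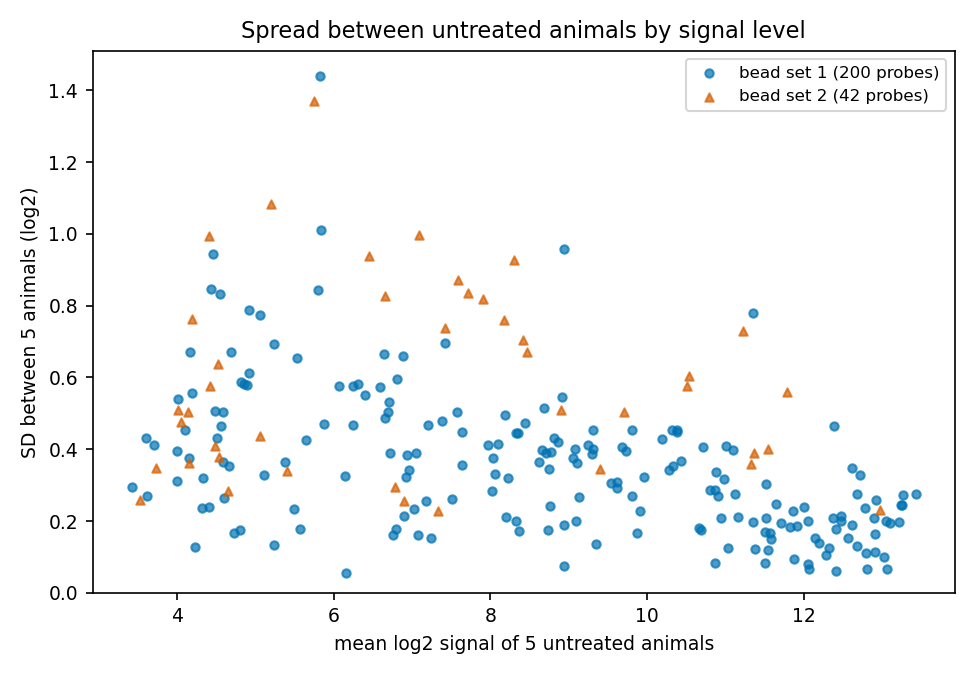
SD between the 5 untreated animals (vertical axis, log2) against mean log2 signal (horizontal axis) for the 242 probes above the floor in all 5, with bead set 1 as blue circles (200 probes) and bead set 2 as orange triangles (42 probes). The SD is lower at high signal, with a median of 0.196 above 12, and set 2 lies higher, with a median of 0.534 against 0.323.

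Animal 3 was the highest animal for 41 of the 42 set 2 probes above the floor in all 5 (97.6%) and for 99 of 200 in set 1 (49.5%). Its median deviation from the probe mean was 0.82 in set 2 and 0.22 in set 1. Within set 1 the deviation ran with the level. It was 0.33 between 7 and 9 and -0.26 above 12, while animal 2 ran the other way, at -0.32 and 0.14. Without animal 3 the median SD of set 2 was 0.293 and that of set 1 was 0.253, against 0.534 and 0.323 with it.

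**Figure D5:**
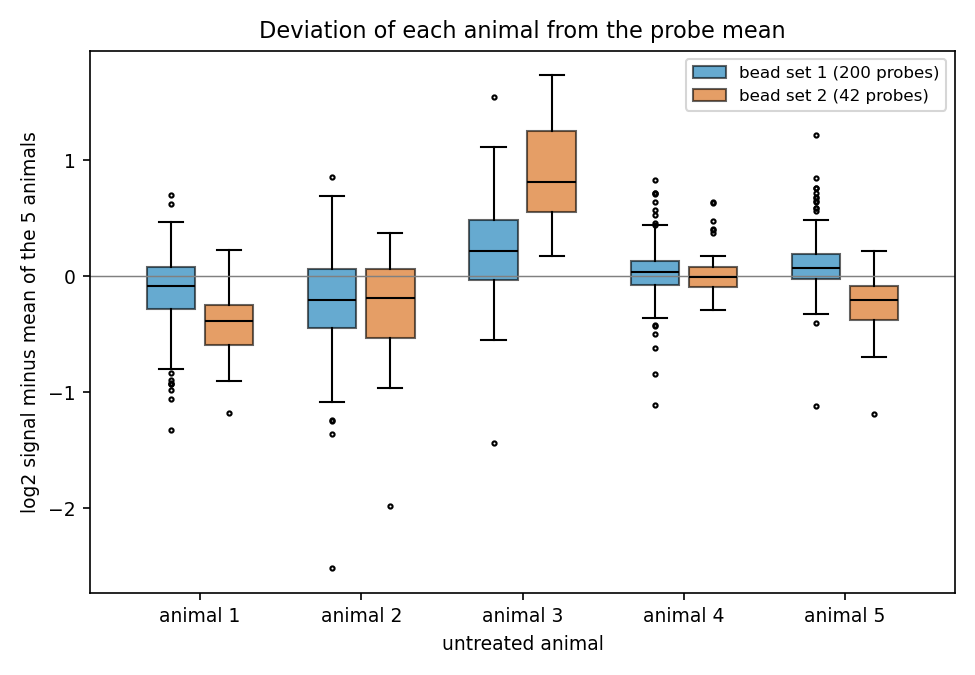
Log2 signal minus the mean of the 5 animals for the 242 probes above the floor in all 5 (vertical axis), by untreated animal (horizontal axis), with bead set 1 in blue and bead set 2 in orange, boxes from the lower to the upper quartile, black bars at the median, whiskers to the last probe within 1.5 box lengths and points beyond them. In animal 3 the median is 0.82 in set 2 and 0.22 in set 1, and in the other animals both lie between -0.38 and 0.07.

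For 4 hairpins both arms had a probe above the floor in all animals. miR-126-3p exceeded miR-126-5p by 1.81 ± 0.23, and miR-423-5p exceeded miR-423-3p by 2.48 ± 0.38. miR-342-3p exceeded miR-342-5p by 2.65 ± 0.75. In these 3 hairpins the order held in 5 of 5 animals. The arms of miR-423 and of miR-342 lie on different bead sets, so their difference also holds the offset between the sets.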

How the data were processed

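The deposited normalized values are log2 fluorescence with a floor of 3, which the authors scaled to an equal total per array, per the labels' design text. The deposited raw table holds fluorescence intensity per probe with 2 water wells, per the file headers, and was used only for the comparison of columns and for alternatives. Upstream software is not given in the sources that were used. No per-sample column was left unmapped.

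The 12 control-bead rows were left out, leaving 582 probes. Linear signal is 2 to the power of the value, and a share is a probe's part of its array's linear total. Probes were ranked by the mean log2 value, and spread is the SD over 5 animals. The number of arrays limits the precision. Mature names were matched to RefSeq through a hand-made map of major arms. Genes within 10 kb were grouped as clusters. A pair of neighbours was called beyond its spread if its mean difference exceeded the SD of the difference. Dixon's 95% critical value of 0.710 for 5 animals was used to mark an animal far from the rest. With 1 group there was no test between groups and no model across probes. Python 3.11.15, numpy 2.4.6 and pandas 2.3.3 were used, and the scripts were tested on simulated data.

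The members, lists and alternatives were chosen with earlier results of these data known. Named probes are the 30 highest, and the 12 with the largest and the 12 with the smallest SD among those above 7. They also include the 6 highest at the floor in some animals only and up to 4 of each list. The 4 largest seed families among matched probes and paired arms were added, with exceptions named in the text.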

Additional observations from a re-analysis of the deposited data

Results flagged for a closer look

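An animal was marked where its gap to the nearest of the other 4, divided by the range of all 5, exceeded Dixon's critical value, which chance does in about 1 in 20 groups. Of the 242 probes above the floor in all 5 animals 18 (7.44%) were marked, 9 of them in animal 3, 5 in animal 2 and 4 in animal 1. Of 94 named probes 7 (7.45%) were marked, a share near that over all 242. Among 54 summaries per animal there were 4, which are summed shares. The median deviations from the probe mean were not among these 54. That of bead set 2 probes with a mean above 7 also exceeded the critical value, at 0.97 in animal 3 with a ratio of 0.736. miR-877, miR-484 and the human-named miR-424 probe were named for a large SD, so their marks reuse the values that chose them. The causes were not tested.

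Animal 3 was high for miR-877 at 9.13, where the other 4 lay between 7.02 and 7.35, and for miR-484 at 9.31, where they lay between 7.27 and 7.86. Both probes are in bead set 2. In bead set 1 it was high for miR-183 at 6.02, where the others lay between 5.17 and 5.26. It was low for miR-30c at 12.01, where the others lay between 12.43 and 12.55, and for miR-19b at 12.10, where they lay between 12.30 and 12.36. Animal 1 was low for miR-152, a stromal miRNA, at 8.38 against 9.16 to 9.37. Animal 2 was low for the human-named miR-424 probe at 9.99 against 11.47 to 11.94.

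Among summed shares, animal 3 was marked for bead set 2 at 13.4% of the signal against 6.60% to 8.06%, and for probes with retired names at 1.39% against 0.988% to 1.09%. Its miR-23/24/27 list held 4.71% against 5.54% to 5.88%. Its islet and eye list held 0.0193% against 0.0119% to 0.0139%, at levels near the floor.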

How the results depend on the processing

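Of the 22 alternatives that do not leave out an animal, 13 stayed within the spread of the reported value or within 1.5 times a count, and 9 moved beyond it. The share of the top 10 and that of the let-7 family stayed within it under every one of these alternatives run for them. Leaving out 1 animal is no check on this, since dropping 1 of 5 values cannot shift their mean by their SD. Probes at the floor in all 5 went from 226 of 582 to 32 of the 241 with a mature mouse name. They fell to 37 by raw fluorescence at or below the higher water well. Above the floor in all 5 were 164 of the 241 (68.0%), against 242 of 582 (41.6%). The mouse-named counts have a smaller total, so 164 stayed within 1.5 times of 242 as a count and not as a share. Probes above the floor in all 5 fell from 242 to 143 with a bound of 7 and to 127 above the highest human cluster or viral probe, the last chosen after seeing the data. The median SD of 0.355 became 0.286 for probes with a mean above 7, 0.263 after quantile normalization and 0.258 as a median absolute deviation. With choices made after seeing the data it became 0.288 with each bead set centred separately and 0.534 in bead set 2 alone. Leaving out 1 animal at a time gave 22.3% to 24.3% for the top 10, 14.9% to 15.6% for the let-7 family, 227 to 262 probes at the floor and 242 to 255 above it. It gave a median SD of 0.257 to 0.391, and the lowest of these, and the 262, came without animal 3. In raw signal minus water 9 of the top 10 and 30 of the top 30 were shared, and miR-451 ranked 14. The floor limits what can be read of low probes. No paired analysis was possible because the values come from 1 group and from no test.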

Other observations

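Among mouse-named probes matched to a sequence, the mature miRNA began with U in 115 of 196 (58.7%). It did so in 19 of the 25 matched among the top 30 (76%) and in 86 of 139 above the floor in all animals (61.9%). At the floor in all it did so in 9 of 21 (42.9%), and at the floor in at least 1 animal in 29 of 57 (50.9%). The median GC content was 40.9% in the top 30, 45.5% above the floor in all and 40.9% at the floor in all. The median length was 22 bases in each. These are descriptions of probes that share families.

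Some probes with related names gave different signals. A probe under a retired miR-16 name lay 5.01 ± 0.94 below the miR-16 probe in 5 of 5 animals, on the other bead set. The human-named miR-106a probe ranked 19 and lay 1.14 ± 0.24 above the mouse-named one in 5 of 5 animals. The 2 probes for miR-128 differed by less, at 9.05 and 8.81.

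The muscle probes did not all follow the same order of animals. miR-1 exceeded the mir-133a hairpin probe by 1.26 ± 0.21, and that probe too was lowest in animal 2. miR-1 exceeded miR-206 by 3.53 ± 0.34, close to the SD of miR-206 itself at 0.42, and miR-206 was lowest in animal 4 at 8.24. miR-143 did not follow the same order, with animal 5 highest at 10.23 and animal 1 lowest at 9.61.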
